A study of Mus musculus with 4 samples.

Results

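The genes described here encode the signalling subunits of the B cell receptor, its coreceptors and the enzymes and adaptor that act directly after it. They are Cd79a, Cd79b, Cr2, Cd22, Lyn, Syk, Btk, Blnk and Plcg2, chosen by name for their place in this pathway. These 9 genes were looked up among the 30041 genes listed for each sample, where 8 were found by symbol and 1, Syk, under the alias Sykb by its Entrez identifier. The RNA-seq samples, 2 control and 2 cKO, were splenic B cells of C57BL/6 mice kept with lipopolysaccharide (LPS) for 72 h. By the study's methods, both groups of mice carried 1 floxed and 1 deleted allele of Nfkbiz, the gene for the nuclear protein IκB-ζ. The cKO mice also carried Mb1-cre on 1 chromosome, and the control mice did not. In Mb1-cre the recombinase sits in the Cd79a locus (Mb1 is an older name of Cd79a) and is active from the earliest B lineage cells on. All differences below therefore compare B cells with deletion of the remaining Nfkbiz allele and a Cre allele in Cd79a to B cells with neither, and the effects of these cannot be told apart. The B cells had been enriched by depletion of spleen cells that carry CD43, CD4 or Ter-119, so that the samples are cell populations. The LPS dose is 20 mg/ml in the labels, whereas the methods of the study give the same figure in μg/ml. It is not stated whether the 2 samples of a group came from separate mice or cultures, so that the p-values measure only the spread between these samples.

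The B cell receptor is a membrane immunoglobulin that binds antigen and pairs with a heterodimer of CD79a and CD79b, whose cytoplasmic tails carry the signal. Lyn, a kinase of the Src family, phosphorylates these tails, Syk docks on them, and Syk then phosphorylates the adaptor BLNK, which brings together Btk and phospholipase Cγ2. The phospholipase releases calcium and activates protein kinase C, which leads to NF-κB and NFAT. CD21, the product of Cr2, lowers the threshold of the receptor in a complex with CD81, whereas CD22 recruits the phosphatase SHP-1 and dampens it. LPS acts through Toll-like receptor 4.

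The values are scores per gene as deposited. Their unit is not stated, and they behave like reads per exon base scaled to sequencing depth, an inference from their low values. Scores are compared between genes on that per-length reading only. By the same inference the samples held 17500000 to 19900000 reads, and the gene with the lowest score of the 9, Btk, rests on 2936 to 3922 inferred reads, a counting error of at most 1.85%. The spread between samples, not the depth, therefore limits what can be seen for these genes. Nfkbiz itself had scores of 0.02409 and 0.02264 in control and of 0.01270 and 0.01156 in cKO samples (log2 fold change -0.94, SE 0.0956, limma, Benjamini-Hochberg adjusted p = 0.0282). The labelled cell type was checked with a list of 9 B cell markers, and all 9 exceeded a score of 0.005 in at least 1 sample, the filter for the test. The list holds Cd79a and Cd79b themselves and Cd74, which other antigen-presenting cells also express. The other 6 summed to 1.4 and 1.47 in control and to 1.19 and 1.28 in cKO samples. Of these 6, only Fcer2a was lower in cKO samples at an adjusted p under 0.05 in limma's test. It scored 0.30046 and 0.31280 in control and 0.16070 and 0.19952 in cKO samples.

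Of the 9 genes, all passed the filter, and 1 fell in cKO B cells at an adjusted p under 0.05. That gene is Cd79a, and among all 9727 genes tested 122 fell, or 1.25%. None of the 9 rose in limma's test, against 79 of all genes, or 0.812%. At an unadjusted p under 0.05, 3 of the 9 were lower (Cd79a, Cr2 and Cd22) and 0 higher, where 22.3% of all genes passed that looser limit in either direction. In every one of the 9 genes the control and cKO scores did not overlap. Both cKO samples scored below both control samples in 5 of them, as in 30.1% of all genes, and above in 4, as in 28.1% of all genes. With 2 samples in each group such a separation is common, being found in 58.2% of all genes tested. The median log2 fold change of the 9 was -0.13, beside -0.01 over all genes. An exact permutation test of 2 against 2 samples cannot give a two-sided p below 0.33, so that single ratios below are given without one.

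**Figure D1:**
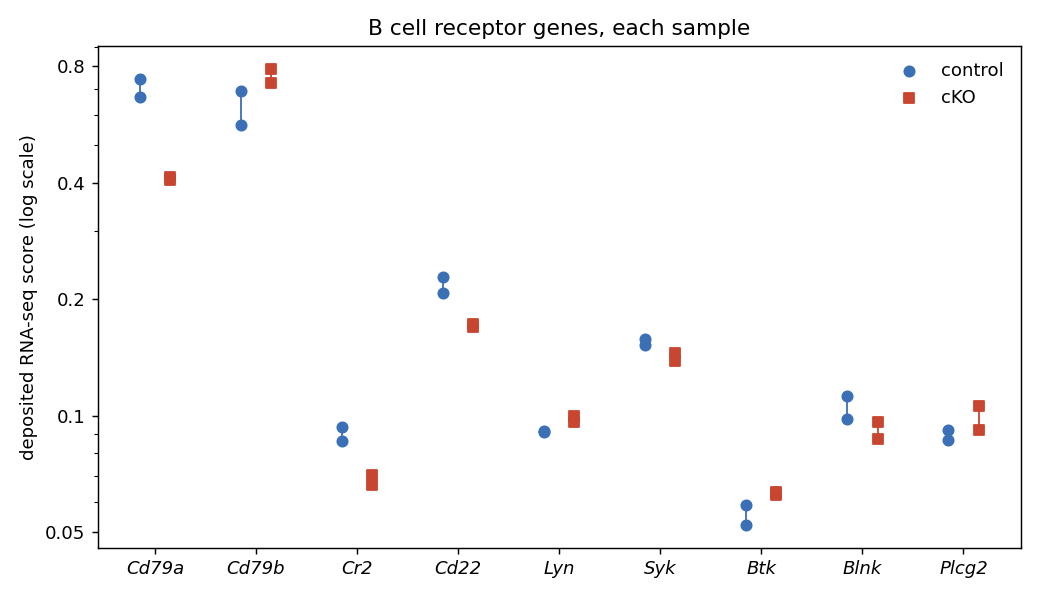
Deposited RNA-seq score (log axis) of the 9 B cell receptor genes in each of the 2 control (blue circles) and 2 cKO (red squares) samples, with a line joining the samples of a group. The cKO scores of Cd79a, 0.41541 and 0.40714, lie well under the control scores, while those of Cd79b lie just above them.

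Cd79a encodes the CD79a (Igα) chain. The gene spans 25682400 to 25687216 of chromosome 7 (plus strand) in NCBIM37, the assembly known as mm9, where the GENCODE annotation gives it 1 transcript of 5 exons and 1457 exon bases. Its score was 0.66695 and 0.74312 in control and 0.41541 and 0.40714 in cKO samples. The cKO samples were close to each other and far below both control samples. The mean was 0.705 ± 0.0539 (SD, n = 2) in control and 0.411 ± 0.00585 (SD, n = 2) in cKO B cells, a ratio of geometric means of 0.584. On the log2 scale the change was -0.78 (SE 0.0843, 95% interval -0.98 to -0.57, limma adjusted p = 0.0294), which corresponds to 0.506 to 0.675 of the control level. Of all genes tested, 135 (1.39%) had a lower log2 fold change. The log2 fold change was -0.79 without cKO 1 and -0.76 without cKO 2. The call was lost in both of these fits, where the spread is taken from the control samples alone. It was likewise lost when all 21582 genes with a score above 0 were tested (limma adjusted p = 0.203), a setting that called no gene. Without a variance trend in limma it was also lost (adjusted p = 0.0595). In these last settings the log2 fold change was unaltered at -0.78. The score covers all exons together, and which exons of Cd79a were read in the Cre allele was not tested.

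The stretch around the start of Cd79a is shown because it precedes the gene that fell and that holds the Cre allele, with those of Cr2 and Cd22, the other genes among the 9 whose interval excluded 0. RefSeq annotation of GRCm38.p6, another assembly than the one used for the gene positions, gave a window of 250 bases before to 50 bases after the start for 7 of the 9 genes, in 8 windows, and none for Cd79b and Lyn. Capitals mark matches, on either strand, to the letters GGGNNNNNCC (a κB motif, bound by NF-κB), CCCNNGGG (a core of the motif of the B cell factor Ebf1) and CAGGAAGT (a motif of Ets factors). Matches to the same motif may overlap. Each line gives the strand of the gene from 5′ to 3′.
Cd79a, chr7:24897247-24897546, plus strand: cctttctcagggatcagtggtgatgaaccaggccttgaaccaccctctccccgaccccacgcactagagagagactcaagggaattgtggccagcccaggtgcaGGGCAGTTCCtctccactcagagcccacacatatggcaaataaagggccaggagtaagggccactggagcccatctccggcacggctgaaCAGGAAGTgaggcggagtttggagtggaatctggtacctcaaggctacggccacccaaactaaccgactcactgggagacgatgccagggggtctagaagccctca
Cr2, chr1:195176670-195176969, minus strand: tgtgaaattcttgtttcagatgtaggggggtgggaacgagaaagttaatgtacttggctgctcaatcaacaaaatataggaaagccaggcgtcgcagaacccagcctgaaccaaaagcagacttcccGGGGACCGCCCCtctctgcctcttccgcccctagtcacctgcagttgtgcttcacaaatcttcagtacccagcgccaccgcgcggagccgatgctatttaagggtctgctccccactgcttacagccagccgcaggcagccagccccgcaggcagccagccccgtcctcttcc
Cd22, chr7:30878979-30879278, minus strand: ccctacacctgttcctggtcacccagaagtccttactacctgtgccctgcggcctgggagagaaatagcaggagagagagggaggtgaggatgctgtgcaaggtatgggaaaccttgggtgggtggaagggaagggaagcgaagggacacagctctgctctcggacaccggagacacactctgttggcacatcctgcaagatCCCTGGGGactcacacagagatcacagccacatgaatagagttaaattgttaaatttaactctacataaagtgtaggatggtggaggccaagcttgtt
The window of Cd79a holds 1 κB match, which begins 146 bases before the start, and 1 Ets match 56 bases before it, and no match to the Ebf1 letters. Only exact matches to the letters were marked, so a window without a match may still hold a site of the factor. Binding was not tested. In Cr2 the capitals cover 3 overlapping κB matches, the first of which begins 123 bases before the start, and in Cd22 they mark 1 Ebf1 match 48 bases before it. Over all 32851 windows of the annotation, 50.8% hold the κB letters, 13.7% the Ebf1 letters and 3.33% the Ets letters. Of the genes not printed, Plcg2 holds 4 κB matches, Syk 3 in 1 of its 2 windows, Blnk 1 Ets match, and Btk has no match to any of the letters.

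Cd79b encodes CD79b (Igβ), the partner of CD79a in the heterodimer, on chromosome 11 from 106172655 to 106176076 (NCBIM37, minus strand). Its score was 0.56518 and 0.68961 in control and 0.78893 and 0.72365 in cKO samples. Both cKO values exceeded both control values, but control 2 lay nearer to cKO 2 than to control 1. The log2 fold change of 0.28 (SE 0.115, 95% interval -0.01 to 0.56) did not pass the test (limma adjusted p = 0.234). The ratio of the Cd79a to the Cd79b score, which is free of the scaling of a sample, was 1.18 and 1.08 in control and 0.527 and 0.563 in cKO samples. The groups did not overlap, with means of 1.13 ± 0.0725 and 0.545 ± 0.0255 (SD, n = 2 each), a ratio of 0.483. The heterodimer takes up its chains in equal number, and at the level of mRNA the score of Cd79a was the higher of the pair in both control samples and the lower in both cKO samples.

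**Figure D2:**
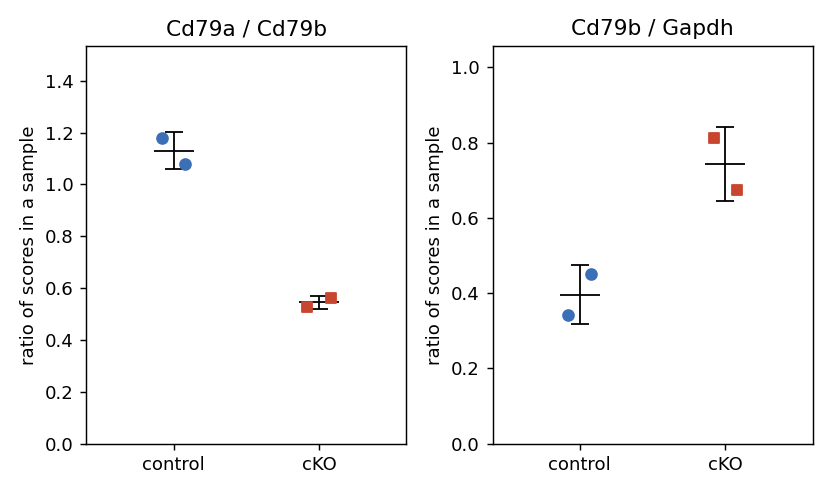
Ratios of scores within each sample (Cd79a over Cd79b and Cd79b over Gapdh) for the 2 control and 2 cKO samples, with the mean ± SD as black lines. Cd79a over Cd79b was 1.18 and 1.08 in control and 0.527 and 0.563 in cKO samples, and Cd79b over Gapdh went from 0.341 and 0.451 to 0.813 and 0.673.

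The immunoglobulin heavy chain is the part of the receptor that binds antigen, and Ighm (μ chain) mRNA also encodes the secreted form. Its score was 4.70043 and 4.17939 in control and 3.32962 and 3.09502 in cKO samples, and its log2 fold change was -0.47 (SE 0.0876) that did not pass the test (limma adjusted p = 0.0696). Per Cd79a, the Ighm score was 7.05 and 5.62 in control and 8.02 and 7.6 in cKO samples. Per Cd79b it was 8.32 and 6.06 in control and 4.22 and 4.28 in cKO samples. The direction of this ratio thus differed with the chain used as the denominator. Igh-VX24 is listed separately at 0.71 to 0.715 of the Ighm score in all 4 samples, and reads shared between these rows may not be separable. Vpreb3, a gene of the immunoglobulin list whose product binds nascent μ chains, had scores of 0.01755 and 0.02045 in control and of 0.00936 and 0.00981 in cKO samples (log2 fold change -0.98, SE 0.11, limma adjusted p = 0.0294). Vpreb3 was named after its values were seen.

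Among the coreceptors, Cr2 and Cd22 had lower scores in both cKO samples, though neither passed the test. Cr2, on chromosome 1 from 196963005 to 197002909 (NCBIM37, minus strand), encodes CD21, the complement receptor that marks marginal zone and follicular B cells. It scored 0.08585 and 0.09351 in control and 0.06638 and 0.07035 in cKO samples. This is a log2 fold change of -0.39 (SE 0.0878, 95% interval -0.61 to -0.17, limma adjusted p = 0.0965). Cd81, which encodes a membrane partner of CD21, scored 0.13406 and 0.13758 in control and 0.16640 and 0.14539 in cKO samples (log2 fold change 0.20, limma adjusted p = 0.286). In a bulk sample, fewer cells that express a gene and less RNA per cell cannot be told apart.

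Cd22 encodes the sialic acid binding inhibitory coreceptor and lies on chromosome 7 from 31650421 to 31665361 (NCBIM37, minus strand), 5.97 Mb from Cd79a. Its score was 0.20766 and 0.22827 in control and 0.17289 and 0.16944 in cKO samples. As with Cr2, the samples of a group lay close together and the groups did not overlap. The log2 fold change was -0.35 (SE 0.084, 95% interval -0.55 to -0.14, limma adjusted p = 0.107). Ptpn6, which encodes SHP-1, the phosphatase recruited by CD22, scored 0.29431 and 0.31082 in control and 0.28368 and 0.29971 in cKO samples, groups that overlapped (log2 fold change -0.05, limma adjusted p = 0.717). Inpp5d encodes SHIP-1, a lipid phosphatase, and scored 0.04821 and 0.05415 in control and 0.06239 and 0.05901 in cKO samples (log2 fold change 0.25, limma adjusted p = 0.21).

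The kinases Lyn, Syk and Btk differed little between the groups. Lyn, on chromosome 4 from 3605262 to 3740269 (NCBIM37, plus strand), scored 0.09071 and 0.09119 in control and 0.09971 and 0.09612 in cKO samples. This is a log2 fold change of 0.11 (SE 0.0772, limma adjusted p = 0.448), and its 95% interval of -0.08 to 0.30 bounds the difference. Lyn made up 46.3% and 41.2% of the summed score of 5 Src family kinases in control and 39% and 40% in cKO samples. Another of these kinases, Lck, known best from T cells, scored 0.03182 and 0.04373 in control and 0.06903 and 0.06355 in cKO samples. It was named after its values were seen.

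Syk, on chromosome 13 from 52678542 to 52744161 (NCBIM37, plus strand), scored 0.15285 and 0.15791 in control and 0.14525 and 0.13872 in cKO samples. This is a log2 fold change of -0.13 (SE 0.0779, 95% interval -0.32 to 0.06, limma adjusted p = 0.369). Its relative Zap70, the corresponding kinase of T cells, did not pass the filter, at 0.00106 and 0.00114 in control and 0.00206 and 0.00217 in cKO samples. The Syk score was 144 and 139 times that of Zap70 in control and 70.5 and 63.9 times in cKO samples. Btk, on chromosome X from 131076875 to 131118109 (NCBIM37, minus strand), encodes the Tec family kinase whose loss blocks B cell maturation. It scored 0.05226 and 0.05877 in control and 0.06250 and 0.06357 in cKO samples (log2 fold change 0.19, SE 0.0919, 95% interval -0.04 to 0.41, limma adjusted p = 0.295). The ratio of Btk to its relative Tec was 2.69 and 2.71 in control and 2.26 and 2.56 in cKO samples.

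Blnk, on chromosome 19 from 41003417 to 41069025 (NCBIM37, minus strand), encodes the adaptor on which Btk and phospholipase Cγ2 meet. It scored 0.11232 and 0.09794 in control and 0.08690 and 0.09626 in cKO samples. The lower control and the higher cKO sample almost met, and the log2 fold change of -0.20 (SE 0.104, 95% interval -0.45 to 0.06) did not pass the test (limma adjusted p = 0.32). Plcg2, on chromosome 8 from 120022191 to 120159040 (NCBIM37, plus strand), encodes phospholipase Cγ2. Its score was 0.08641 and 0.09192 in control and 0.09216 and 0.10614 in cKO samples. Control 2 and cKO 1 were nearly equal, and the log2 fold change was 0.15 (SE 0.0997, 95% interval -0.10 to 0.40, limma adjusted p = 0.413). The Plcg2 score was 13.7 and 12.9 times that of Plcg1, the form used by T cells, in control and 13 and 15.4 times in cKO samples, groups that overlapped.

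**Figure D3:**
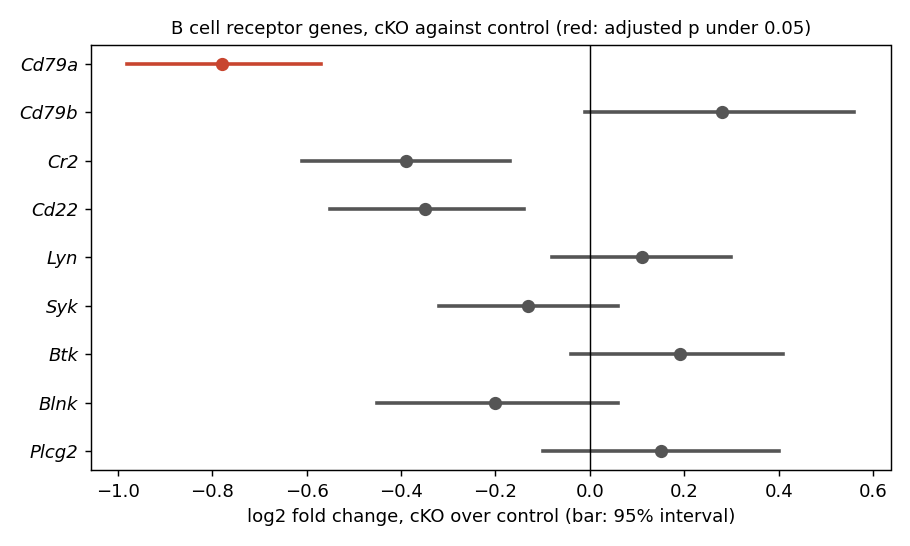
Log2 fold change of cKO over control for the 9 genes, with 95% intervals from limma. The interval of Cd79a runs from -0.98 to -0.57, those of Cr2 and Cd22 also lie below 0, and the intervals of the other 6 genes include 0.

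The order of the levels, per exon base, was led by the heterodimer. In control B cells Cd79a had a mean score of 0.705 and Cd79b of 0.627, and their ranges overlapped. Cd22 (0.218), Syk (0.155) and Blnk (0.105) followed, each apart from its neighbours. Lyn (0.091), Cr2 (0.0897) and Plcg2 (0.0892) overlapped in turn, and Btk was the lowest at 0.0555. In cKO B cells Cd79b (0.756) stood above Cd79a (0.411) with no overlap. Cd22 (0.171) and Syk (0.142) followed, then Plcg2 (0.0992), Lyn (0.0979) and Blnk (0.0916), which overlapped in turn, and last Cr2 (0.0684) and Btk (0.063), which did not overlap. The order therefore changed places between the chains of the heterodimer and among the genes of intermediate level.

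Beyond the 9 genes, a list of 88 other genes of the pathway was examined, of which 82 passed the filter. In limma's test 1 of the 82 fell and 3 rose, against 1.25% and 0.812% of all genes. At an unadjusted p under 0.05, 12 were lower (14.6%, beside 11.5% of all genes) and 18 higher (22%, beside 10.8% of all genes). Both cKO samples scored below both control samples in 24 (29.3%, beside 30.1% of all genes) and above in 30 (36.6%, beside 28.1% of all genes), and the groups overlapped in 28. The median log2 fold change was 0.02, near the -0.01 of all genes.

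The gene that fell is Fcgr2b, the inhibitory receptor for IgG on B cells, with 0.08647 and 0.07764 in control and 0.05517 and 0.05391 in cKO samples (log2 fold change -0.59, SE 0.0897, limma adjusted p = 0.0428). It was not called without either cKO sample or without control 1, with quantile normalization of the scores, with no filter or with no variance trend. Of 9 inhibitory receptors past the filter, 5 had both cKO scores below both control scores and 1 had both above, shares to be read against 30.1% and 28.1% of all genes, with a median log2 fold change of -0.20. The genes that rose are Nfatc1, Prkcd and Ptpn11. Nfatc1, a calcium regulated transcription factor, scored 0.03985 and 0.04739 in control and 0.08076 and 0.07660 in cKO samples (log2 fold change 0.85, SE 0.109, limma adjusted p = 0.0331). It had the largest absolute log2 fold change of these 4 called genes. Prkcd encodes protein kinase Cδ and scored 0.13734 and 0.14279 in control and 0.19585 and 0.21182 in cKO samples (log2 fold change 0.54, SE 0.0825, limma adjusted p = 0.0428). Ptpn11 encodes the phosphatase SHP-2 and scored 0.02683 and 0.02660 in control and 0.03893 and 0.03798 in cKO samples (log2 fold change 0.52, SE 0.08, limma adjusted p = 0.0428). In these 4 genes the groups were separated by more than the distance between samples of a group. The number of pathway genes that rose was 13 without control 2, 1 without control 1 and 0 without either cKO sample, with no filter or with no variance trend.

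**Figure D4:**
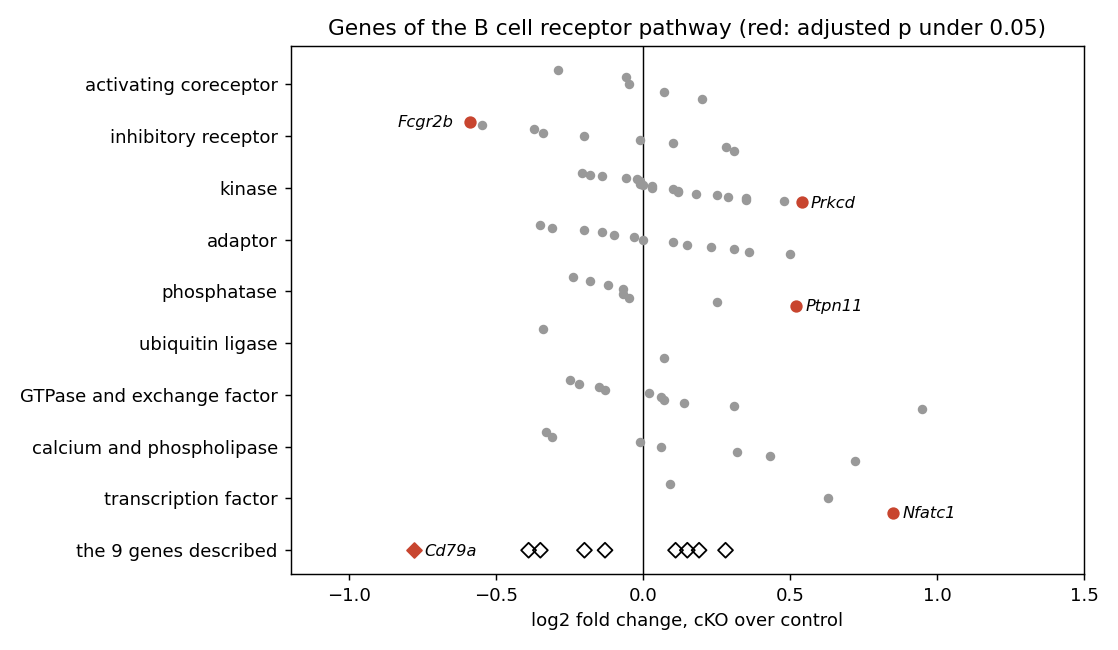
Log2 fold change of cKO over control of 78 of the 82 other pathway genes past the filter, set out by role, each point a gene, with the 9 genes as diamonds in the last line. Fcgr2b (-0.59) is the called gene below 0, and Nfatc1 (0.85), Prkcd (0.54) and Ptpn11 (0.52) are those above 0.

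By role, 21 kinases had a median log2 fold change of 0.03 with 1 called, and 13 adaptors 0.00 with 0 called. The 10 GTPases and exchange factors had a median of 0.04 with 0 called. The 8 phosphatases had a median of -0.07 and the 7 calcium genes one of 0.06. The 3 transcription factors, Nfatc1, Nfatc2 and Nfatc3, all belong to the NFAT family and had a median of 0.63. All 3 had both cKO scores above both control scores, as in 28.1% of all genes. Only Nfatc1 passed the test. Nfatc2 had a log2 fold change of 0.63 (limma adjusted p = 0.105) and Nfatc3 one of 0.09 (limma adjusted p = 0.558). Downstream of phospholipase Cγ2, Prkcb, which encodes protein kinase Cβ, scored 0.08623 and 0.08711 in control and 0.07223 and 0.07726 in cKO samples (log2 fold change -0.21, limma adjusted p = 0.209). It did not pass the test.

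Markers of other cells moved with the groups in part. Of 13 myeloid genes, 7 passed the filter, 0 fell, and 1 rose (Fcer1g, log2 fold change 1.66, limma adjusted p = 0.042). Of the 7, 5 had both cKO scores above both control scores (beside 28.1% of all genes), 4 had higher scores and 0 lower ones at an unadjusted p under 0.05, and the median log2 fold change was 0.75. The scores of the 13 summed to 0.235 and 0.214 in control and to 0.271 and 0.273 in cKO samples. Without Itgam, the largest of them, the other 12 summed to 0.0934 and 0.0639 in control and to 0.136 and 0.115 in cKO samples, and S100a9 was listed at 0 in all 4. Of 13 T and NK cell genes, 1 passed the filter (Lck), 0 were called by limma against 1 at an unadjusted p under 0.05, and the sums were 0.0359 and 0.0474 in control and 0.0757 and 0.0696 in cKO samples. Lck makes up most of these sums, and the other 12 genes summed to 0.00404 and 0.00364 in control and to 0.0067 and 0.00606 in cKO samples, with Cd3e at no more than 0.00020. The part of other cells in the Lck and Zap70 scores was not tested. Of the plasma cell genes, 6 of 7 passed the filter and 1 fell (Prdm1, log2 fold change -2.82, limma adjusted p = 0.0429). At an unadjusted p under 0.05, 2 of the 6 were lower and 1 higher. The median of the 6 was 0.12, since 4 were positive, among them Sdc1 (CD138) at 0.77 (limma adjusted p = 0.116). Igj, the other negative gene beside Prdm1, was at -0.86 (limma adjusted p = 0.13). These are RNA values. For CD138 protein, measured by flow cytometry after LPS, the study reported less in cKO than in control B cells. The scores of the 7 plasma cell genes summed to 0.562 and 0.471 in control and 0.534 and 0.47 in cKO samples. Erythroid genes summed to 0.0134 and 0.00263 in control and to 0.00254 and 0.00218 in cKO samples. In the B cell list 2 of the 9 genes fell, Cd79a and Fcer2a (CD23; log2 fold change -0.78, limma adjusted p = 0.0428), and 0 rose. Fcer1g, Itgam, Sdc1, Igj and Fcer2a were named after their values were seen.

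The genes around Cd79a were examined because the Cre allele lies there. The nearest gene past the filter on each side did not pass the test. Rps19, which starts 13 kb before Cd79a, had a log2 fold change of 0.10 (limma adjusted p = 0.436), and Arhgef1, which starts 5.53 kb after the start of Cd79a, one of 0.28 (limma adjusted p = 0.196). The next genes outward were Phldb3 (0.41, limma adjusted p = 0.25) and Ethe1 (0.40, limma adjusted p = 0.368) before it, and Rabac1 (0.29, limma adjusted p = 0.417) and Zfp574 (0.02, limma adjusted p = 0.943) after it. Within 10 Mb of Cd79a, 170 other genes were tested, of which 3 fell and 2 rose, or 2.94% beside 2.07% of all genes. The median log2 fold change there was -0.01. Cd79a had the fourth lowest log2 fold change in this window. The genes that rose were Apoe (1.795) and Axl (1.798, at 0.86 Mb), and those that fell were Trappc6a (-0.89), C230062I16Rik (-0.67) and Pou2f2. Pou2f2, the nearest of these 5, lies 0.195 Mb from Cd79a and encodes Oct-2, a B cell transcription factor. It scored 0.06402 and 0.05832 in control and 0.03642 and 0.03669 in cKO samples (log2 fold change -0.74, SE 0.0873, limma adjusted p = 0.0306). These 5 genes were named after their values were seen.

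**Figure D5:**
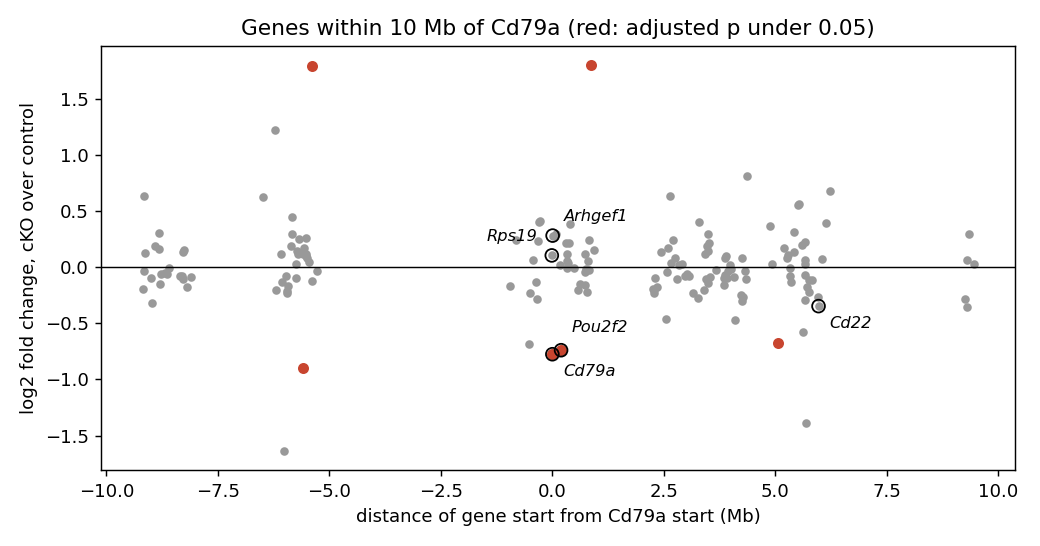
Log2 fold change of cKO over control for the genes past the filter within 10 Mb of the start of Cd79a, by distance of gene start in Mb, with red points for an adjusted p under 0.05. Cd79a (-0.78) lies far below its nearest neighbours Rps19 (0.10) and Arhgef1 (0.28), and Pou2f2 (-0.74) lies 0.195 Mb away.

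Across the 4 samples, the pattern of Cd79a was most like those of D730005E14Rik, Gpr15 and LOC100045967. Likeness was measured as the Euclidean distance between log2 scores centred on each gene, which was 0.101, 0.107 and 0.125 for these genes. The control scores of D730005E14Rik were 0.01838 and 0.01934 and its cKO scores 0.01034 and 0.01052. Gpr15, which encodes a chemoattractant receptor, went from 0.00716 and 0.00786 in control to 0.00464 and 0.00409 in cKO samples. LOC100045967 scored 0.04676 and 0.04679 in control and 0.02896 and 0.02777 in cKO samples. With 4 samples, such closeness describes these values only.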

How the data were processed

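RNA-seq of poly(A) RNA was measured in 2 control and 2 cKO samples. According to the methods and the submitters' processing notes, the authors aligned 38-base reads to mm9 with TopHat2, filtered out reads of rRNA and tRNA (BED Tools) and deposited 1 score per gene and sample. The step from mapped reads to this deposited score, the counter and the annotation are not given in the sources used here. How reads were assigned sets how far overlapping genes can be told apart, and a fixed scaling per sample lets very abundant mRNAs shift the others.

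Genes that reached 0.005 in any sample (9727 of 30041) entered 1 fit of limma 3.58.1 (R 4.3.3) with a variance trend. The values fitted were log2(score + 0.0001), p-values were adjusted over all these genes by Benjamini-Hochberg, and the threshold was 0.05. Fold changes are on that scale. Intervals are limma's at 95%. Reads per gene were inferred from the step between low scores of genes of 600 to 1600 exon bases, of which 77.1 to 81.4% lay within 0.2 of a whole multiple. A larger true step, such as a multiple of this, would mean fewer reads. The code was tested on simulated data. Positions are from GENCODE on NCBIM37. Tables were made with Python 3.11.15 and pandas 2.3.3.

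The genes and lists were chosen with earlier results of these data known. Named are the 9 genes, called pathway genes (up to 6 in each direction) with Cd81, Ptpn6, Inpp5d and Prkcb, Nfkbiz, the 3 genes nearest to Cd79a on each side, the 3 of most similar pattern, reference genes, and Prdm1 in relation to Cd79b. Some genes that this rule covers are not reported here. Others are said to have been named after their values were seen. Ighm, Igh-VX24, Zap70, Tec, Plcg1, Nfatc2, Nfatc3 and Cd3e are also named without falling under this rule, as is Prdm1 as a plasma cell marker. Samples are numbered 1 and 2 in both groups without a stated pairing, so the fit had no block. Alternatives were another pseudocount, other filters, no variance trend, other scalings, a replicate block and leaving out each sample.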

Additional observations from a re-analysis of the deposited data

How the results depend on the processing

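The log2 fold change of Cd79a stayed negative under every alternative run, and ranged from -0.85 to -0.70 when each sample was left out in turn. Its call was lost with no filter (-0.78, limma adjusted p = 0.203), with no variance trend (-0.78, limma adjusted p = 0.0595) and without either cKO sample. With no filter and with no variance trend, 0 of the 9 genes and 0 pathway genes in either direction were called by limma, against 3 of the 9 at an unadjusted p under 0.05 in both settings. All genes called were then 0 of 21582 and 22 lower with 11 higher, respectively. Above a score of 0.05, 88 of 1933 genes fell and 35 rose. Quantile normalization left 0 pathway genes lower. Leaving out 1 sample gave 0 to 1 of the 9 genes lower, 0 to 1 pathway genes lower and 0 to 13 higher. Over all genes it gave 0 calls without either cKO sample, 161 lower and 136 higher without control 1, and 391 lower and 439 higher without control 2. A fit with 1 sample left in a group takes that sample to vary like the other group. With scores divided by Cd79b, a reference of RT-PCR in the study, the median of all genes moved to -0.283. Cd79a was then at -1.05, Cr2 at -0.67 (limma adjusted p = 0.0446), and Lyn (-0.17), Btk (-0.09) and Plcg2 (-0.12) reversed in sign, as dividing by a gene with higher cKO scores lowers all others. The deviations of same-numbered samples were weakly and negatively correlated (Pearson -0.145, Spearman -0.291 across genes). These values cannot show whether samples were paired or shared a batch, which is not stated. With a replicate block, Cd79a had -0.78 (limma adjusted p = 0.00466), 1 of the 9 genes and 1 pathway gene were lower and 2 pathway genes higher, with 180 genes lower and 177 higher in all. The crossed replicate block, added after the data were seen, gave 1 of the 9 genes and 1 pathway gene lower and 5 pathway genes higher, with 230 and 212 in all. For the other 8 genes, 99 of 103 alternative values, the crossed block included, kept their direction and their side of the threshold. These 8 genes were not called in the main fit. In the settings where no gene at all was called, they could not change side, so the count does not measure robustness there. With 2 samples in each group, Cr2 and Cd22 missed the threshold although their intervals excluded 0, which does not show that they did not differ.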

Other observations

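The choice of reference gene bears on Cd79b, which with Gapdh was a reference of RT-PCR in the study. Among 6 genes often used as references, Gapdh fell in cKO B cells, with scores of 1.65710 and 1.52910 in control and 0.97065 and 1.07524 in cKO samples (log2 fold change -0.64, SE 0.0875, limma adjusted p = 0.0362). The other reference genes were not called, with log2 fold changes of -0.21 for Actb, -0.29 for Hprt, 0.20 for B2m, -0.05 for Tbp and -0.24 for Ppia. Cd79b per Gapdh was 0.341 and 0.451 in control and 0.813 and 0.673 in cKO samples, with means of 0.396 ± 0.0777 and 0.743 ± 0.0988 (SD, n = 2 each). Prdm1, the gene of the plasma cell regulator Blimp-1, scored 14.8 and 6.64 per 1000 of Cd79b in control and 1.05 and 1.04 in cKO samples, a ratio of 0.105. Per 1000 of Gapdh it was 5.04 and 3 in control and 0.855 and 0.698 in cKO samples, a ratio of 0.199. The direction was the same with both references and the ratio differed.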
